A study of Mus musculus with 2 samples.

Results

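Ly49-high Cd8b1-negative alpha-beta T cells were chosen by their own UMI counts out of a bone marrow sort of natural killer progenitors (NKP), a UMI being 1 counted RNA molecule. A cell was taken with at least 2 UMIs over Cd3d, Cd3e and Cd3g, at least 1 over Trac, Trbc1 and Trbc2, at least 3 over Klra3, Klra6, Klra7 and Klra9, and at most 2 over Klre1, Klrk1 and Klrc2. It had no UMI of Cd79a, Trdc or Cd8b1, did not hold Fcer1g and Ikzf2 together, and had at most 1 UMI over Mki67 and Top2a. This took 491 of 20322 cells, 160 of 7955 in the library labelled Irf4-/- and 331 of 12367 in the library labelled WT. Where values come in pairs below, the library labelled Irf4-/- is first. The selection used these genes, so their levels describe the cells and are not tested.

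The study sorted CD122-positive marrow cells that lacked NK1.1, Ncr1, c-kit, Sca-1 and lineage markers. They came from wild-type C57BL/6 mice and from Irf4-/- mice, and each genotype gave 1 Chromium 3' library. Mouse ages, numbers and pooling, the background strain of the Irf4-/- mice and the deleted part of Irf4 are not given in the sources used here. Differences between libraries have no replicate check and are given as values with counting intervals and no test. Intervals throughout are 95% and cover counting error only.

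Ly49 receptors, encoded by the Klra genes, are C-type lectin-like receptors of natural killer cells and of some T cells that bind MHC class I molecules. Klra1, Klra3, Klra6, Klra7 and Klra9 encode Ly49A, Ly49C, Ly49F, Ly49G and Ly49I, which carry an inhibitory motif and recruit the phosphatase SHP-1, the product of Ptpn6. Each natural killer cell or T cell usually expresses only some of the Ly49 genes of its genome, so neighbouring cells carry different sets. On T cells these receptors are known from CD122-positive CD8 T cells with memory or regulatory features. CD122, the product of Il2rb, is the receptor chain shared by interleukin-2 and interleukin-15.

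The promoters of the 4 Ly49 genes of the selection and of Klra1 are shown because these genes are neighbours and were detected in different sets in different cells. The 250 bases before each start are RefSeq's, build GRCm38.p6, on the minus strand of chromosome 6, printed 5′ to 3′ along the gene. They are chr6:130026955-130027204 for Klra6, chr6:130233323-130233572 for Klra7, chr6:130337627-130337876 for Klra3, chr6:130193113-130193362 for Klra9 and chr6:130386875-130387124 for Klra1. For Klra3 the RefSeq start lay upstream of the GENCODE vM21 start at 130337574, so its window depends on the gene model, while the other windows end directly at the GENCODE start. Klra7 had 2 RefSeq starts, and the one nearest the GENCODE start was used. Capitals mark matches to 3 short motifs searched on both strands, CTTTGA (TCF/LEF core), TGTGGT (RUNX core) and TCACAC (T-box core).

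Klra6: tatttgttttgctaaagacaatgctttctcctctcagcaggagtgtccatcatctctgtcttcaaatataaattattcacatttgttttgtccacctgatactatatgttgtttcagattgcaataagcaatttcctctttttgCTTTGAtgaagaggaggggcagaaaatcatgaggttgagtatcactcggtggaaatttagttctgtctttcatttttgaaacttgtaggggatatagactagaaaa
Klra7: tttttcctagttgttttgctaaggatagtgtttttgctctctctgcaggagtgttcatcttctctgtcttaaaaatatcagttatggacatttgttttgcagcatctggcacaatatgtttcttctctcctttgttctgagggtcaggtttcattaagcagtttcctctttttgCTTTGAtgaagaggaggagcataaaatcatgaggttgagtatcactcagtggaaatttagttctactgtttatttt
Klra3: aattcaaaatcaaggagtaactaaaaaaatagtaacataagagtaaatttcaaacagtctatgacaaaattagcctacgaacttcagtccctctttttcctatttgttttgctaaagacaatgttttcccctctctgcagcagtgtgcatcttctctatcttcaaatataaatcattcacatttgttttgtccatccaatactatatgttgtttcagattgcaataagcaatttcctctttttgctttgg
Klra9: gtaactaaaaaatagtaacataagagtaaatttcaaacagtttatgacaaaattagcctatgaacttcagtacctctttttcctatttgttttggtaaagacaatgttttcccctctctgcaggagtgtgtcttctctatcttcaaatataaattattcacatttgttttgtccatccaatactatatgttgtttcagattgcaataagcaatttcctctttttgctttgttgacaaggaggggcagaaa
Klra1: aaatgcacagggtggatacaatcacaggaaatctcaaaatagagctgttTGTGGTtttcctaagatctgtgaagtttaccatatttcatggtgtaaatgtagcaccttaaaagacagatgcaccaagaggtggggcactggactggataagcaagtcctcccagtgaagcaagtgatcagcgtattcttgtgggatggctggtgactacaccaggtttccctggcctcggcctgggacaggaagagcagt

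CTTTGA stood 106 bases before the start in Klra6 and 76 before it in Klra7, and was in 13.8% of 32851 promoters of this length. Klra1 had TGTGGT, found in 14.0% of all promoters. TCACAC, in 12.3% of all, was not in these windows, and Klra3 and Klra9 held no match to any of the 3 motifs in theirs. The promoters of Klra3, Klra6, Klra7 and Klra9 shared a run of 18 bases, tttcctctttttgctttg, and those of Klra6 and Klra7 a run of 30 bases that starts with it. Identity was 83.6% between the windows of Klra3 and Klra9 and 67.9% between those of Klra6 and Klra7. A match is a description of letters and shows no binding.

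The libraries held 82599767 and 95031071 UMIs, with a median of 9540 and 7125 per kept cell, and shared 25 barcodes among kept cells, 1 of them in a selected cell of the library labelled WT. Selected cells had medians of 8997.5 and 6602 UMIs, none over 3 times its own library's median. Over kept cells Irf4, the targeted gene, had 803 and 287 UMIs, or 9.77 and 3.04 CPM (UMIs scaled to a total of 1e6 over the cells in question), and thus stood higher in the library labelled Irf4-/-. In the selected cells Irf4 had 3 UMIs in each library, so the genotype cannot be checked there, and all directions between libraries rest on the labels alone.

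The name given to these cells as CD8-negative holds for the CD8 beta chain only. Cd8a, the CD8 alpha chain, had a UMI in 50.6% and 37.2% of the selected cells, against 0.305% and 1.08% of B cells (at least 3 Cd79a UMIs, medians of 4151 and 2974 UMIs per cell). With each cell thinned to 2000 UMIs the shares in the selected cells were 24.4% and 14.8%. Cd8b1 had no gap at the limit: with the other criteria kept, 160 and 331 cells had no Cd8b1 UMI, 57 and 133 had 1, and 65 and 77 had 2. The share with Cd8a was 77.2% and 59.4% in the cells with 1 Cd8b1 UMI. The cells are therefore called Cd8b1-negative here, which means that no Cd8b1 molecule was counted.

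**Figure D1:**
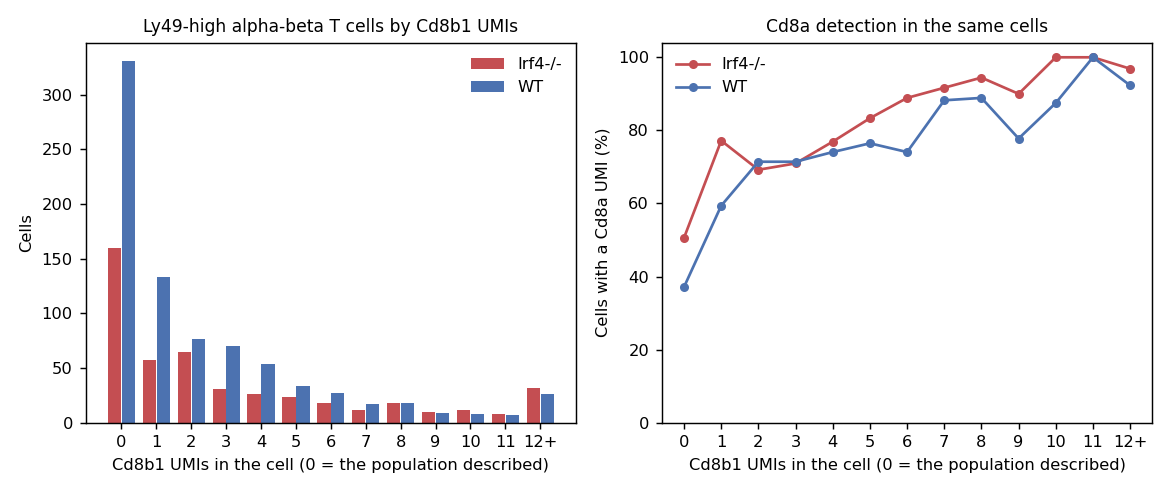
Ly49-high alpha-beta T cells by the number of Cd8b1 UMIs in the cell (x axis) in the libraries labelled Irf4-/- (red) and WT (blue): number of cells on the left, share of those cells with a Cd8a UMI in percent on the right. The bar at 0, 160 and 331 cells, is the population described, and counts fall without a gap towards higher Cd8b1, while Cd8a is detected in 50.6% and 37.2% of the cells at 0.

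The limit of 3 Ly49 UMIs also fell within a continuum. Just inside it, 50 and 93 cells had exactly 3 UMIs over the 4 genes. Just outside, 57 and 118 had 2, 85 and 199 had 1, and 229 and 525 had none. The Cd8a share was 28.4% and 17.9% at none and 43.5% and 31.2% at 1 UMI. It was 40.4% and 27.1% at 2 and 42.0% and 31.2% at 3. At 4 it was 53.3% and 35.3% (30 and 68 cells), and at 5 it was 61.5% and 43.1% (13 and 51 cells). The share was thus lowest at none, without an order from 1 to 3, and higher at 4 and 5 in both libraries.

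Klra7, the gene of Ly49G, was the most widely detected of the 4 in both libraries, with a UMI in 111 of 160 cells (69.4%) and 253 of 331 (76.4%). Klra6 followed with 101 (63.1%) and 194 (58.6%). Klra3 was in 47 (29.4%) and 69 cells (20.8%), and Klra9 in 34 (21.3%) and 71 (21.5%). In B cells these genes were in at most 1.22% of cells. Summed levels were 295 and 433 CPM for Klra7, 171 and 221 for Klra6, 123 and 95.4 for Klra3, and 50.6 and 83.2 for Klra9. These 3' counts take 1 end per molecule, but differences between genes in capture or read placement were not corrected, so levels of different genes compare only roughly. By counts Klra9 was lowest in both libraries, and Klra3 and Klra9 had overlapping intervals in the library labelled WT (83.0 to 109 and 71.6 to 96.1 CPM). The last 300 transcript bases of Klra3 and Klra9 were 98.7% identical in GENCODE vM21, so many reads from this end may not tell them apart. Their counts may be too low or misplaced, and with them their detection and rank among the 4 genes are uncertain.

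Most cells had a partial set detected. Only 1 of the 4 genes was detected in 52 (32.5%) and 111 cells (33.5%), 2 in 84 (52.5%) and 185 (55.9%), 3 in 23 (14.4%) and 34 (10.3%), and all 4 in 1 cell of each library. Klra6 with Klra7 was the most frequent set, in 48 (30.0%) and 112 cells (33.8%), followed by Klra7 alone in 30 (18.8%) and 69 (20.8%). Klra6, detected in most cells, was the sole gene in 8 and 16. The sum over the 4 genes had a median of 4.5 and 5 UMIs per cell and reached 21 and 24, so an undetected gene may be one whose few molecules were missed.

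**Figure D2:**
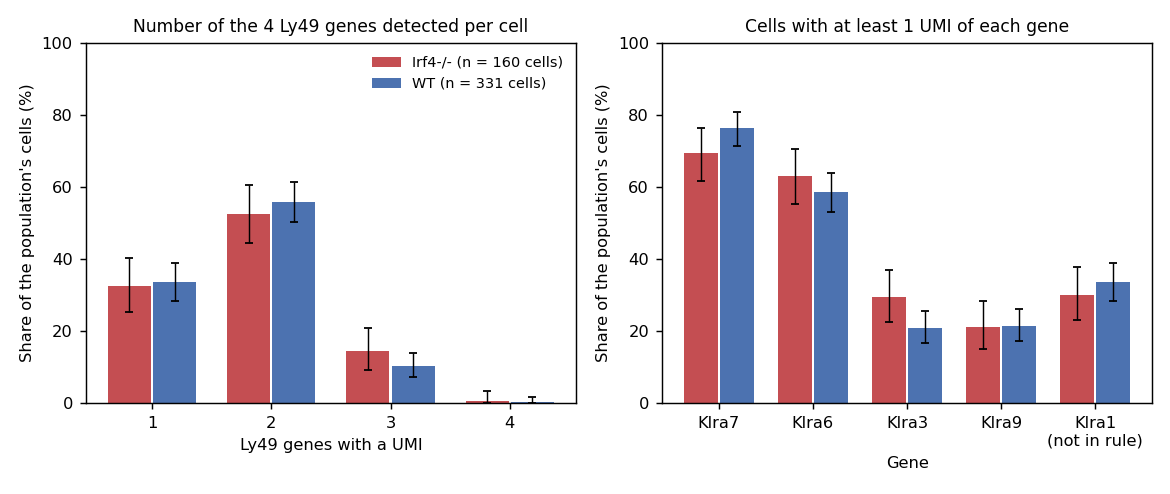
Share of Ly49-high Cd8b1-negative cells, in percent, by number of the 4 Ly49 genes detected (left) and with at least 1 UMI of each Ly49 gene (right), in the libraries labelled Irf4-/- (red, 160 cells) and WT (blue, 331 cells); error bars are exact Clopper-Pearson intervals. Sets of 2 genes are the most frequent in both libraries (52.5% and 55.9%), and Klra7 is the most widely detected gene.

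By the gene with most UMIs in the cell, Klra7 led in 69 (43.1%) and 169 cells (51.1%), Klra6 in 29 and 70, Klra3 in 32 (20.0%) and 32 (9.67%), and Klra9 in 15 and 27, with 15 and 33 ties. Ptpn6, the SHP-1 gene, was lowest where Klra7 led in both libraries, with 102 (78.8 to 129) and 137 CPM (116 to 160). It was 170 and 158 CPM where Klra6 led, 141 and 210 where Klra3 led, and 131 and 172 where Klra9 led, an order that differed between the libraries. The Ptpn6 interval where Klra7 led overlapped those of the other groups in both libraries, so no order is read from these values. Ccl5, a chemokine gene of memory and cytotoxic T cells, was 6360 and 5645 CPM where Klra7 led, 4831 and 6846 where Klra6 led, 5918 and 4312 where Klra3 led, and 3759 and 5340 where Klra9 led. The order of the groups led by Klra3 and Klra6 was thus opposite in the libraries for Ccl5.

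Klra1, the gene of Ly49A, was not part of the selection. It had 217 and 329 UMIs in the selected cells, 146 CPM (interval 128 to 167) and 150 CPM (134 to 167), in 48 (30.0%) and 111 cells (33.5%) with a median of 4 and 2 UMIs in each of those. Of the cells with Klra6 and Klra7 as the detected set, 12 of 48 and 40 of 112 also held Klra1. With Klra7 alone 12 of 30 and 28 of 69 did, and with Klra3, Klra6 and Klra7 0 of 8 and 5 of 15. Klra1 was thus found with several sets, and whether its share differs between sets was not tested. B cells had Klra1 in 16.2% of cells (42.5 CPM) in the library labelled Irf4-/- and 2.16% (5.95 CPM) in the library labelled WT, while Klra7 stayed at 1.22% and 0.240% of the same B cells. The other Ly49 genes had few UMIs: Klra5 had 3 and 17 UMIs, Klra4 0 and 4, Klra8 2 and 0, Klra10 1 and 1, and Klra2 and Klra17 none. Klra4 and Klra8 encode the activating receptors Ly49D and Ly49H, whose adaptor gene Tyrobp had 25.0 and 5.91 CPM.

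Il2rb, which encodes the CD122 of the sort, had 393 and 380 CPM in the selected cells and was in 91.9% and 85.8% of them, against 1.52% and 0.240% of B cells. Bcl2, a survival gene that this receptor chain's signals are known to sustain, had 636 and 667 CPM, in 96.3% and 94.0% of cells. In the Ly49-negative cells defined below Il2rb had 392 and 347 CPM and Bcl2 647 and 607, and neither passed the test of that contrast. Ikzf2, the gene of Helios, a factor of regulatory and innate-like T cells, had 354 and 393 CPM although the selection removed cells that also held Fcer1g. That criterion took out many cells, from 417 to 167 and from 756 to 337.

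The receptor usage of these cells was mixed. An alpha V segment was seen in 67 (41.9%) and 111 cells (33.5%), over 35 and 44 different segments, and a beta V segment in 68 (42.5%) and 111 (33.5%), over 19 in each library. Trbv12-2 was the most frequent beta segment, in 12 (7.50%) and 16 cells (4.83%), and Trbv3, Trbv1, Trbv12-1 and Trbv13-2 were each in 4 to 12. Trav3-3 was in 6 and 11, Trav16 in 3 and 13, Trav13-1 in 7 and 8, Trav16n in 5 and 9 and Trav12-2 in 5 and 4. Trav11 and Traj18, the segments of invariant natural killer T cells, had no UMI, which allows up to 3 UMIs per library. A 3' library samples V segments poorly, so these are shares of detected segments.

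Most listed markers of other cell types were low or absent in the selected cells. Cd4, Foxp3, Ncr1, Sox13 and Mpo had no UMI in either library. Of the gamma-delta T cell list only Sox13 could be read, because the selection fixed Trdc at 0 and Trgc1 and Trgc2 were not among the gene symbols. Gamma chain genes outside the lists were detected: Trgv2 had 103 and 87.7 CPM, Tcrg-C2 65.5 and 55.0, Tcrg-C4 26.3 and 21.8, and Tcrg-C1 13.5 and 17.7. The summed level was 3.37 and 2.73 CPM for 3 CD4 T cell markers, 2.70 and 0.909 for 3 regulatory T cell markers, 19.6 and 15.5 for 5 natural killer T cell markers, and 4.05 and 1.82 for 4 myeloid markers. The B cell list summed to 21.6 and 21.8 CPM, nearly all from Cd79b, and the 3 haemoglobin genes of the erythroid list to 8.10 and 22.7 CPM. The natural killer list was highest, 147 and 131 CPM, mainly from Eomes (58.7 and 61.4 CPM) and the selection gene Fcer1g (51.3 and 51.4 CPM). Of the genes negative in the sort, Klrb1c, the gene of NK1.1, had 12.1 and 12.3 CPM, Ly6a, of Sca-1, 2.70 and 1.36, and Kit, of c-kit, 2.02 and 1.36.

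The selected cells made up 2.01% (1.71 to 2.34) and 2.68% (2.40 to 2.98) of kept cells, a log2 ratio of -0.41 (-0.69 to -0.14). The direction turned when every cell was thinned to 2000 UMIs before the selection: 3.12% and 2.35% of cells were then taken, a log2 ratio of 0.41 (0.16 to 0.66). The selection sets lower limits on some genes and upper limits on others, and the library labelled Irf4-/- was the deeper one, so no order of the shares is read from these values. Along the criteria, cells with no Cd8b1 UMI were 37.4% and 25.7% of kept cells. Those among them with at least 3 Ly49 UMIs were 19.8% and 10.8%, whereas the limit on Klre1, Klrk1 and Klrc2 left 5.24% and 6.11%.

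Between the libraries, Pim2, Ifi27l2a, Id2 and Xcl1 had the highest ratios of the ranked genes, toward the library labelled Irf4-/-, and most genes of the naive and quiescence lists had ratios below 0. Of 5827 genes with at least 50 UMIs over both libraries, 166 (2.85%) were over 1.5-fold higher in the library labelled Irf4-/- and 246 (4.22%) over 1.5-fold lower. Their median log2 ratio was -0.03, and 2672 of them were above 0. The balance turned on cells selected after thinning to 2000 UMIs, with 257 genes higher and 193 lower. Pim2, a survival kinase gene induced by STAT5, had 159 and 87 UMIs, 107 and 39.5 CPM, a log2 ratio of 1.44 (1.05 to 1.83). The gene was higher in the library labelled Irf4-/- in the 3 comparison populations too, by log2 ratios of 0.67, 0.83 and 0.38 in the Ly49-negative, Klre1-high and Cd8b1-positive cells defined below. Ifi27l2a, an interferon-induced gene, had 389 and 185 CPM, a log2 ratio of 1.07 (0.88 to 1.26). Id2, an inhibitor of E protein transcription factors, had 109 and 56.4 CPM, a log2 ratio of 0.95 (0.60 to 1.30). Xcl1, a chemokine that attracts cross-presenting dendritic cells, had 232 and 130 CPM, a log2 ratio of 0.84 (0.61 to 1.07). The rest of the 12 highest were Myc, Alyref, Ost4, Rcc2, Dok2, Zbp1, Cox17 and BE692007, with log2 ratios from 0.63 to 0.82.

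At the other end, Cd28, the costimulatory receptor of T cells, had 66.1 and 102 CPM, a log2 ratio of -0.63 (-0.99 to -0.28). Dnaja1, a co-chaperone of heat shock protein 70, had 239 and 364 CPM, a log2 ratio of -0.61 (-0.79 to -0.43). N4bp2, Safb, Akap8, Usp24, Rb1cc1, Sike1, Ubn1, Zfp207, Kdm2a and Slc44a2 completed the 12 lowest, between -0.81 and -0.61. Of these 24 genes, 23 had the same sign in the Ly49-negative cells, 21 in the Klre1-high cells and 24 in the Cd8b1-positive cells, which come from the same 2 libraries. Whether the ratios differ between populations was not tested. Thinning moved 7 of the 24 ratios beyond their counting interval, with Cd28 at -0.006, Usp24 at -0.04 and Rb1cc1 at -0.17 then near 0, and Pim2 at 1.84 and Ifi27l2a at 1.28 farther from it, beside BE692007 and Cox17. Among cells with no Cd8a UMI 4 moved, Id2 to 0.57, Myc to 0.39, Zbp1 to 0.04 and Ubn1 to -1.06.

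**Figure D3:**
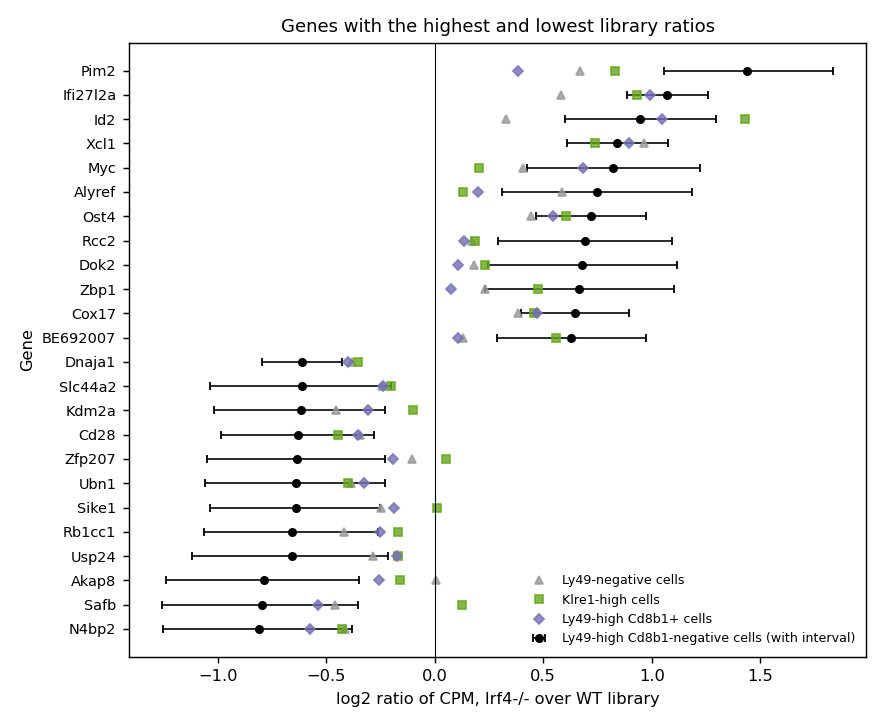
The 12 highest and 12 lowest log2 ratios of CPM (x axis, Irf4-/- label over WT label) among genes with a mean of at least 50 CPM in the Ly49-high Cd8b1-negative cells; black points with bars are these cells with the exact counting interval, and coloured points the 3 comparison populations of the same libraries. Pim2 reaches 1.44 in the Ly49-high Cd8b1-negative cells and lies between 0.38 and 0.83 in the others.

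Over all 5827 genes compared, 2672 had a ratio above 0. By gene group, the interleukin-7 receptor gene Il7r was lower (277 and 421 CPM, log2 ratio -0.60), and 2 of 12 measured genes of the naive and stem-like list were above 0, with a median of -0.29. Lef1 (149 and 194 CPM) and Tcf7 (273 and 335 CPM), transcription factors of resting T cells, were at -0.38 and -0.30. Of 9 quiescence genes 2 were above 0, with a median of -0.38, and Btg2 (140 and 211 CPM) was past the fold. In contrast, 13 of 15 MHC class I genes were above 0, with a median of 0.22 and none past the fold: B2m had 1720 and 1300 CPM and H2-K1 1723 and 1406. For nuclear-encoded genes of oxidative phosphorylation 15 of 16 were above 0, with a median of 0.18 and none past the fold. Il7r, Lef1, Tcf7, Btg2, B2m and H2-K1 had the same sign in the Ly49-negative, Klre1-high and Cd8b1-positive cells. There, Il7r was at -0.73, -0.90 and -0.43, Btg2 at -0.61, -0.53 and -0.52, and B2m at 0.35, 0.37 and 0.47.

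Interferon response genes did not move together. Of 18 measured, 2 (Ifi27l2a and Zbp1) were past the fold upward and 3 (Ifit1, Ifit2 and Ifit3) downward. The interval of Ifit1, -1.28 to 0.06, included no difference. Ifit3, an antiviral effector, had no UMI in the 160 cells of the library labelled Irf4-/- and 82 UMIs (37.3 CPM, in 9.37% of cells) in the library labelled WT. With a floor of 3 UMIs put in for the library labelled Irf4-/-, its log2 ratio was -4.20, and the upper limit of its counting interval was -3.87. It had 1 and 124 UMIs in the Ly49-negative cells, 2 and 54 in the Klre1-high cells, 0 and 129 in the Cd8b1-positive cells and 0 and 35 in B cells. Its neighbour in the family Ifit1bl1 had 0 and 83 UMIs in the selected cells, while Ifit2 (12 and 55 UMIs) and Ifit1 (29 and 65 UMIs) were present in both libraries.

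Among survival and signalling genes, Bbc3, which encodes the pro-apoptotic protein PUMA, had 19.6 and 42.3 CPM, a log2 ratio of -1.11, while Bcl2 was at -0.07. Bbc3 was lower in the Ly49-negative, Klre1-high and Cd8b1-positive cells too, at -1.26, -1.31 and -0.96. Bid had 11.5 and 17.7 CPM, with an interval of its log2 ratio, -1.54 to 0.23, that included no difference. Klrc1, the NKG2A gene, was higher in the library labelled Irf4-/- (37.1 and 14.5 CPM, log2 ratio 1.35), and its partner gene Klrd1 was at 0.05 (503 and 486 CPM). Tyrobp (25.0 and 5.91 CPM, 2.08) and Hopx (207 and 137 CPM, 0.60) were also past the fold upward. In the same 3 comparison populations Klrc1 was at 0.50, 0.71 and 1.84, Tyrobp at 0.17, 0.41 and 0.27, and Hopx at 0.70, 0.53 and 0.46. Of 17 genes of T cell receptor signalling, Cd28 alone was past the fold and the median was -0.11.

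The Ly49-high cells were set against 3 other populations of the same libraries, which otherwise met the same criteria. Ly49-negative cells (229 and 525) had no UMI of the 4 Ly49 genes. Klre1-high cells (344 and 268) had at least 3 UMIs over Klre1, Klrk1 and Klrc2 and at most 2 over the Ly49 genes. Cd8b1-positive cells (256 and 347) had at least 2 Cd8b1 UMIs. UMIs were summed per library and population, and edgeR's quasi-likelihood test with the library as a block compared the 4 sums, with Benjamini-Hochberg adjustment over all genes tested. The libraries are the replicates of these contrasts, which leaves 1 residual degree of freedom, and genes of the selection were left out before adjustment. All 3 contrasts share the selected cells.

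Compared with Ly49-negative cells, Ly49-high cells had more RNA of another Ly49 gene, of the CD94 gene Klrd1, of the chemokine Xcl1 and of SHP-1. They had less of Smc4 and of 4 of 13 naive and stem-like genes. Of 8502 genes tested, 30 (0.353%) were higher and 35 (0.412%) lower. Klra1 had 146 CPM against 76.4 in the library labelled Irf4-/- and 150 against 58.9 in the library labelled WT, with non-overlapping intervals in both. The log2 fold change was 1.19 (edgeR adjusted p = 2.6e-24). Klra1 resembles the selection genes in sequence (72.6% identity with Klra7 over the last 300 transcript bases), so its counts are not fully independent of the selection. Xcl1 had 232 CPM against 120, and 130 against 61.6, a log2 fold change of 1.03 (edgeR adjusted p = 1.5e-21). Both libraries showed it, around different levels.

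Klrd1, whose product CD94 pairs with NKG2 receptors, had 503 CPM against 327 and 486 against 319, a log2 fold change of 0.64 (edgeR adjusted p = 6.2e-18). Ptpn6 had 128 CPM against 95.3 and 152 against 88.8, a log2 fold change of 0.66 (edgeR adjusted p = 4.3e-08). By number of Ly49 UMIs in the cell, from 0 to 5, Ptpn6 had 95.3, 117, 98.1, 97.7, 146 and 205 CPM under the Irf4-/- label and 88.8, 101, 129, 140, 131 and 207 under the WT label. These levels did not rise at every step, and those at 5 UMIs come from 13 and 51 cells. DESeq2 did not call Ptpn6 (adjusted p = 1.0). Ctla2a, a cysteine protease inhibitor gene, had 478 CPM against 320 and 491 against 280. Cd160 and Cd7 were also higher, as were Samd3 and Mrpl12 by log2 fold changes of 0.55 and 0.47.

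Cd8a was higher in the Ly49-high cells as well, with 105 CPM against 67.2 and 99.1 against 51.0 (log2 fold change 0.84, edgeR adjusted p = 3.9e-09), although both populations had no Cd8b1 UMI. On cells selected after thinning to 2000 UMIs its direction turned (log2 fold change -0.10), in populations of 247 and 289 Ly49-high and 1544 and 2235 Ly49-negative cells. That selection also turned Mrpl12 (-0.08) and Ifi27l2a (0.023).

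Smc4, a condensin subunit of chromosome compaction, was the lowest of the ranked genes, with 234 CPM against 393 and 291 against 513, a log2 fold change of -0.76 (edgeR adjusted p = 2.6e-23). BE692007 followed with -0.75, then Nrip1, Itgb7, Plec, Tmem71, Ifi27l2a, Resf1, Klf3 and Cdkn1b with -0.55 to -0.40. Of 13 naive and stem-like genes 4 were lower and none higher: Ccr7, the lymph node homing receptor (25.0 CPM against 44.4, and 27.7 against 54.4), Dapl1, Lef1 and Klf3. The list's median was -0.19 against -0.00 over all genes tested. DESeq2 called Smc4 as its only lower gene and thus none of these 4, and Klf3 was called again in 6 of 11 alternatives. Of 11 quiescence genes Cdkn1b and Slfn2 were lower, and of 9 cytotoxic effectors Nkg7 (939 CPM against 754, and 792 against 669) and Ctsw were higher. No gene of 10 in the BCL2 family or of 15 in the MHC class I list passed the test.

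The Ly49-negative cells held cells of other kinds. A UMI of Cd4, Foxp3 or Il2ra was in 8.73% and 6.86% of them, against 1.88% and 0.302% of Ly49-high cells, and Foxp3, Cd4, Nrp1, Tnfrsf4 and Il2ra were among the 35 lower genes. Without such cells, an alternative chosen after seeing the data, 19 genes were higher and 19 lower, 17 and 18 of them called before. Samd3, Nrip1, Itgb7, Plec and Ifi27l2a then missed the threshold, while Klra1, Xcl1, Klrd1, Ptpn6 and Smc4 kept it. DESeq2 called 5 genes higher and 1 lower, among them Klra1, Xcl1, Klrd1, Ctla2a and Smc4, and without the library block 5 and 14 were called. Ctla2a, Klra1, Klrd1 and Smc4 passed in all 11 alternatives of this contrast.

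**Figure D4:**
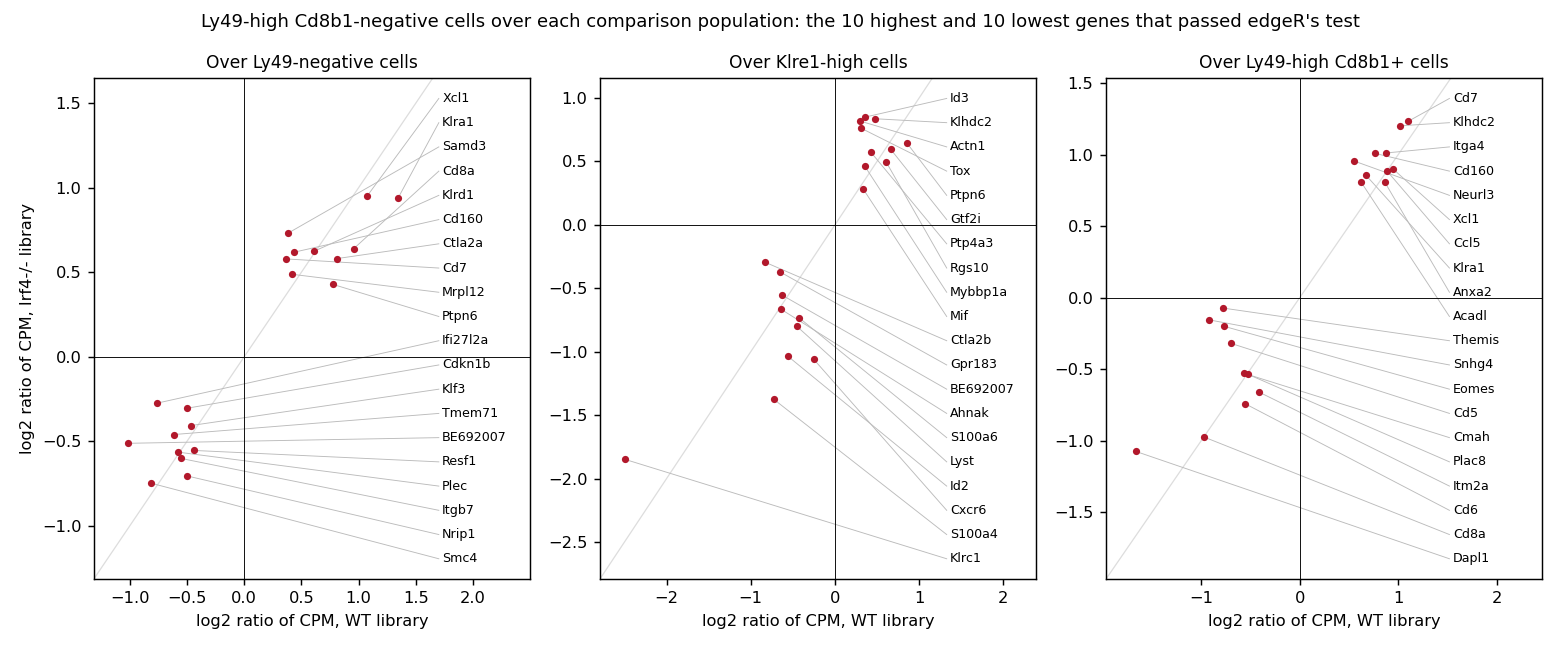
Log2 ratio of CPM, Ly49-high Cd8b1-negative cells over each comparison population, in the library labelled WT (x axis) and the library labelled Irf4-/- (y axis), for the 10 highest and 10 lowest ranked genes that passed edgeR's test in each contrast. Every point lies in the quadrant where both libraries have the same sign, which the choice of genes required, for example Klra1 against Ly49-negative cells at 1.35 and 0.94.

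Compared with Klre1-high cells, Ly49-high cells had less RNA of effector memory genes and, by edgeR but not DESeq2, more of Ptpn6 and Id3. Of 8430 genes tested, 29 (0.344%) were higher and 55 (0.652%) lower. Klrc1 had 37.1 CPM against 134 and 14.5 against 81.7, a log2 fold change of -2.08 (edgeR adjusted p = 2.9e-39). It is a close relative of the selection gene Klrc2, so this value is not independent of the selection. Fgl2, a fibrinogen-like immunoregulatory gene, had 6.07 CPM against 44.1 and 3.64 against 24.7 (log2 fold change -2.79).

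Of 18 memory and effector genes, 8 were lower and none higher, with a median of -0.38. Among them were the chemokine receptor gene Ccr2, the S100 protein genes S100a4 (35.8 CPM against 92.7, and 29.5 against 48.9) and S100a6, and Id2, Itgb1, Lgals1 and Ahnak. Id2 had 109 CPM against 223 and 56.4 against 82.8, a log2 fold change of -0.85 (edgeR adjusted p = 9.6e-13). Its relative Id3, which marks memory precursor T cells, went the other way, with 147 against 81.6 and 175 against 136 CPM, a log2 fold change of 0.60 (edgeR adjusted p = 3.0e-07). DESeq2 called neither Id2 (DESeq2 adjusted p = 0.20) nor Id3. The Fas ligand gene Fasl (20.2 CPM against 42.9, and 2.73 against 28.7) and the granzyme gene Gzmm were lower as well, as was Cxcr6 (81.7 CPM against 170, and 60.9 against 72.5, log2 fold change -0.72), whose interval in the library labelled WT included no difference. Lyst, BE692007, Ctla2b and Gpr183 were the other ranked lower genes, between -0.60 and -0.52, and the interval of Ctla2b in the library labelled Irf4-/- included no difference.

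Ptpn6 had 128 CPM against 81.9 and 152 against 84.0, a log2 fold change of 0.76 (edgeR adjusted p = 3.2e-10, DESeq2 adjusted p = 0.23). Trat1, an adaptor that stabilises the T cell receptor complex, had 29.7 CPM against 8.57 and 41.4 against 19.0 (log2 fold change 1.42), and Sox4, a factor of early lymphocyte development, had 24 UMIs in each library against 2 in each. Both were low in all of these cells. Klhdc2, Gtf2i, Rgs10, Actn1, Ptp4a3, Mybbp1a and Mif were higher by 0.32 to 0.68, with an interval for Actn1 in the library labelled WT that included no difference. Tox, a factor that T cells need in development and keep under chronic stimulation, had 74.9 CPM against 44.1 and 64.1 against 51.8, and in the library labelled WT its interval included no difference. Klrd1 rose here too (503 against 428 and 486 against 396 CPM, log2 fold change 0.28), while Klra1 was close to the Klre1-high level (146 against 135 and 150 against 127 CPM) and was not called. Without the library block no gene passed (400 had an unadjusted p under 0.05), and DESeq2 called 3, Klrc1, Fgl2 and Ahnak, all lower. Restricted to cells with no Cd8a UMI, 11 genes were higher and 18 lower.

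Compared with Cd8b1-positive Ly49-high cells, the Cd8b1-negative ones had more Ccl5, Xcl1 and Cd7 RNA, and less of Dapl1, Ccr7 and 45 ribosomal protein genes. Of 8797 genes tested, 80 (0.909%) were higher and 102 (1.16%) lower. Ccl5 had 5933 CPM against 3211 and 5760 against 3119, a log2 fold change of 0.81 (edgeR adjusted p = 3.4e-14), with nearly the same levels in both libraries. Cd7, an early T and natural killer cell surface gene, had 171 CPM against 73.0 and 166 against 77.4, a log2 fold change of 1.09 (edgeR adjusted p = 3.4e-09). Xcl1 had 232 against 125 and 130 against 67.1, and Klra1 146 against 80.9 and 150 against 93.9, both called. Klhdc2, Itga4, Cd160, Anxa2, Neurl3 and Acadl were higher by 0.63 to 1.03.

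Of 8 natural killer lectins and receptors measured 5 were higher and none lower: Klrd1 (503 CPM against 350, and 486 against 346), Klrb1a, Klrb1c, Cd160 and Slamf7. Of the gamma chain genes, which belong to no list and were looked at after values were seen, Trgv2, Tcrg-C2 and Tcrg-C4 were higher and Tcrg-C1 missed the threshold (13.5 CPM against 8.60, and 17.7 against 5.62, edgeR adjusted p = 0.055). The selection required that Trdc had no UMI in either population. Trgv2 had 103 CPM against 41.3 and 87.7 against 23.7, a log2 fold change of 1.51 (edgeR adjusted p = 5.5e-09), and Tcrg-C2 and Tcrg-C4 had log2 fold changes of 1.21 and 1.38. In Ly49-negative cells Trgv2 had 99.7 and 81.3 CPM, and that contrast did not call it. Il2rb was also higher, by 0.33 (393 against 309 and 380 against 278 CPM).

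Among the lower genes Dapl1 fell by 1.49 on the log2 scale and Ccr7 had 25.0 CPM against 58.8 and 27.7 against 64.9. Cd8a fell by 1.05, a value that is not independent of the limit on Cd8b1, the gene of its partner chain. Of 17 genes of T cell receptor signalling 4 were lower and none higher, with a list median of -0.10: Lat, the adaptor that links the receptor to its effectors, Themis, and the negative regulators Cd5 and Cd6. Themis and Lat differed mainly in the library labelled WT (65.9 against 113 and 85.9 against 128 CPM), with 85.0 against 89.5 and 112 against 123 in the other. DESeq2 did not call Cd5, Themis or Lat (adjusted p = 0.15, 0.42 and 0.43), and Cd5, Cd6 and Themis missed the threshold without the library block. Eomes, a T-box factor of memory CD8 T cells, had 58.7 CPM against 67.4 and 61.4 against 105, a log2 fold change of -0.62 (edgeR adjusted p = 0.0039). Snhg4, Cmah, Plac8 and Itm2a were also lower, with log2 fold changes of -0.63 to -0.58. In the library labelled Irf4-/- the intervals of Eomes (-0.58 to 0.17), Snhg4 (-0.57 to 0.24) and Cd5 (-0.66 to 0.006) included no difference. Eomes and Snhg4 also missed the threshold without the library block and with at least 5 Ly49 UMIs. Perforin, the product of Prf1, had 16.2 CPM against 32.0 and 15.9 against 31.5. Ptpn6 was not called, with 128 against 126 and 152 against 136 CPM, and the intervals of its log2 ratio were -0.24 to 0.28 and -0.05 to 0.37.

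Ribosomal protein genes made up 45 of the 102 lower genes, of 91 tested, with a median log2 fold change of -0.19 among these 45. The Cd8b1-positive cells were the deeper ones, with medians of 10987 and 8163 UMIs, and 2 of them in the library labelled Irf4-/- held 3 or more haemoglobin UMIs. The 3 haemoglobin genes of the erythroid list summed to 1244 and 14.4 CPM in the Cd8b1-positive cells against 8.10 and 22.7 in the Cd8b1-negative ones, and both of those tested, Hba-a1 and Hbb-bs, were among the 102 lower genes. Without such cells 105 genes were higher and 127 lower. The part of depth in these calls was not tested, and selection after thinning left only 18 and 24 Cd8b1-positive cells and no call. Snhg4 then turned direction (0.14).

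**Figure D5:**
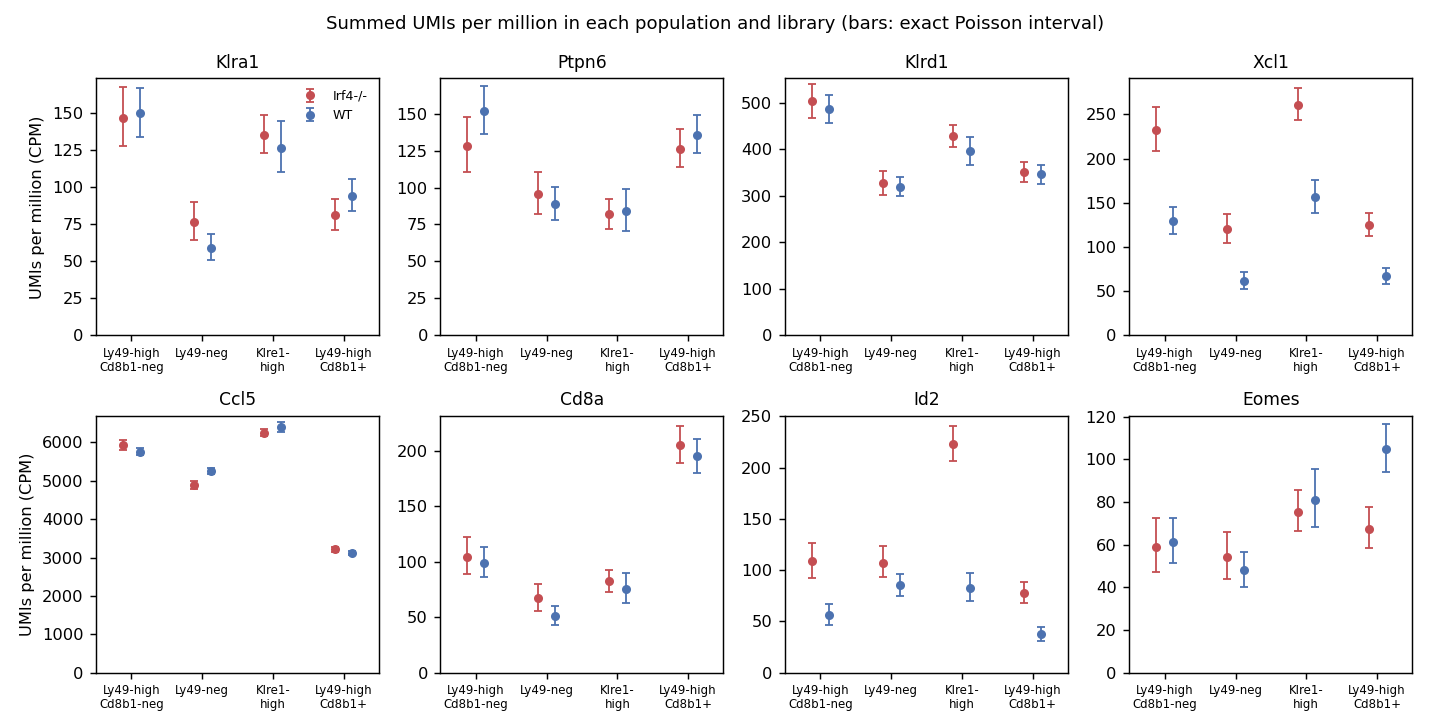
CPM of 8 genes, summed over the cells of each population, in the libraries labelled Irf4-/- (red) and WT (blue), with exact Poisson intervals. Ptpn6 lies between 126 and 152 CPM in both Ly49-high populations and between 81.9 and 95.3 in the other 2, and Xcl1 keeps its order between libraries in each population.

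Members with and without a Cd8a UMI were compared after the share with Cd8a was seen. Of 6358 genes tested by edgeR, 0 (0%) was higher and 1 (0.0157%), Ccl5, lower in cells with Cd8a, with 255 genes at an unadjusted p under 0.05. DESeq2 gave the same counts. Ccl5 had 5244 CPM against 6679 and 4701 against 6462, a log2 fold change of -0.40 (edgeR adjusted p = 0.011). Without the library block no gene passed. The size of these sums limits what can be detected, so a lack of calls does not show that the cells with and without Cd8a are alike.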

How the data were processed

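The deposited matrices hold UMI counts per gene and cell barcode, made with Cell Ranger 6.1.1 per the file headers against mm10 per the submitters' processing notes. Which gene annotation was used is not given here. The label protocols speak of nuclei at the kit step although cells were sorted. Barcodes with at least 500 genes, 1000 UMIs and under 10% mitochondrial UMIs were kept, and doublets were not removed. Cells were selected by UMI limits on single genes. UMIs were summed per library and population. Between libraries, genes with at least 50 UMIs were compared as CPM ratios with exact binomial intervals, at a fold of 1.5 and a floor of 3 UMIs. Shares have exact Clopper-Pearson and levels exact Poisson intervals. Between populations, edgeR 4.0.16 (R 4.3.3) with a library block was used at an adjusted p of 0.05; DESeq2 1.42.0 was an alternative. The procedure was tested on simulated data. Named genes were the 12 highest and 12 lowest library ratios, the 10 highest and 10 lowest fold changes per contrast among genes called in the same direction in both libraries (mean of at least 50 CPM; selection, ribosomal, mitochondrial, receptor segment and unnamed genes left out), and members of the gene lists. Fgl2, Trat1, Sox4, Ifit1bl1, Nrp1, Tnfrsf4, Trgv2 and the Tcrg genes fall outside that rule and were chosen after their values were seen. The members and lists were chosen with earlier results of these data known. Other limits, scalings, filters and fits were tried, and the comparison by Cd8a, leaving out cells with Cd4, Foxp3 or Il2ra, and leaving out cells with haemoglobin were chosen after seeing the data.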

Additional observations from a re-analysis of the deposited data

How the results depend on the processing

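Selection on cells thinned to 2000 UMIs reversed the ratio of the shares of cells (0.41), the fold changes of Cd8a (-0.10), Mrpl12 (-0.077) and Ifi27l2a (0.023) against Ly49-negative cells, and that of Snhg4 (0.14) against Cd8b1-positive cells; the cause was not tested. Requiring no Cd8a UMI gave a share ratio of -0.76. Between libraries, 257 genes were past the fold upward after thinning, 110 with at least 5 Ly49 UMIs, 685 (973 downward) with a filter of 10 UMIs and 11 (18 downward) with 200 UMIs. The upward part of the genes past the fold, 40.3%, was 57.1% after thinning and 28.1% without Cd8a. Against Ly49-negative cells, DESeq2 called 5 genes higher and 1 lower, the fit without the library block 5 and 14, the thinned selection 130 and 126, and the fit without cells holding Cd4, Foxp3 or Il2ra 19 and 19. There, 49 genes were higher with at least 5 Ly49 UMIs and 46 without the low-count filter. Against Klre1-high cells, the counts higher and lower were 11 and 18 without Cd8a, 0 and 3 by DESeq2, 17 and 22 with at least 5 Ly49 UMIs and 0 and 0 without the library block, and 85 were higher after thinning. Against Cd8b1-positive cells, DESeq2 called 15 higher, and the counts were 17 and 58 with at least 5 Ly49 UMIs, 16 and 10 without the library block and 0 and 0 after thinning. There, 156 were lower without the low-count filter and 121 higher in 1 fit over all populations. Between cells with and without Cd8a, 0 genes were lower without the library block, 2 without the low-count filter, and 31 were higher and 10 lower after thinning. Leaving out a library left no residual degrees of freedom, so the ratio within each library stands for it. No paired analysis was possible because each genotype had 1 library; between populations the library was the block.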
